A study of Homo sapiens with 6 samples.

Results

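The proteases and protease inhibitors of the senescence secretome were examined as 9 genes of the deposited expression table, chosen by name: the matrix metalloproteinases MMP1, MMP2 and MMP14, the tissue inhibitors of metalloproteinases TIMP1, TIMP2 and TIMP3, and PLAU, PLAUR and SERPINB2 of the urokinase system. All 9 were found among the 34738 genes of the table, and 8 of them had a mean of at least 1 FPKM (fragments per kilobase of transcript and sequencing depth) over the 6 libraries and entered the test. The libraries came from cells labelled KHM-5M, an established thyroid cancer line. The siGDF15 group (3 libraries, titled Si) carried a knockdown of GDF15, a secreted cytokine of the TGF-β family, by a small interfering RNA given with a lipid reagent. The NC group (3 libraries) is labelled control, the series calls it a blank control and the methods call it negative control cells. A control siRNA is listed in the methods, but whether these NC cells received it was not settled here, so the effect of GDF15 loss and that of transfection cannot be told apart. One legend of the study names TPC-1 instead of KHM-5M. No time between transfection and harvest was found in the sources used here.

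Senescent cells release enzymes that cut the matrix around them, together with the inhibitors of those enzymes. Matrix metalloproteinases are zinc enzymes made as inactive precursors, and TIMP proteins block them by filling the active site. MMP14 is anchored in the cell membrane and activates the precursor of MMP2 there, with TIMP2 as the bridge between both enzymes. Urokinase (encoded by PLAU) sits on its receptor (PLAUR) and turns plasminogen into plasmin, a broad protease, and SERPINB2 is one of its inhibitors.

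GDF15 itself was at 22.4, 19.3 and 23.1 FPKM in NC and at 10.8, 10.5 and 10.7 FPKM in siGDF15, a log2 fold change of -0.92 (SE 0.079, adjusted p = 2.4e-05 from edgeR). Expected counts summed to between 67569576 and 68025163 per NC library and between 51738814 and 67793417 per siGDF15 library, the lowest being siGDF15 replicate 2. Of the 11867 tested genes, 3565 were higher and 3721 lower in siGDF15 at an adjusted p-value under 0.05, while scaling by total counts alone gave 2705 and 4682. The TMM scaling used here placed fold changes 0.10 (log2) above those from total counts, whose median over all tested genes was -0.099. Of 6 thyroid lineage markers analysed here, only PAX8 and FOXE1 reached a mean of 1 FPKM. PAX8 was called higher in siGDF15 (log2 fold change 0.53, adjusted p = 1.2e-04 from edgeR). FOXE1 was not called (0.14, adjusted p = 0.22 from edgeR), and its groups overlapped. TG, SLC5A5 and NKX2-1 were at most 0.219 FPKM in every library, TG was higher in siGDF15 at that low level (1.85, adjusted p = 9.9e-04 from edgeR with a minimum of 0.1 FPKM), and TSHR was not analysed here. In bulk RNA such as this, fewer cells with a transcript and less transcript per cell cannot be told apart.

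Of the 9 genes, 3 were upregulated in the siGDF15 group (MMP2, TIMP1 and TIMP2), 2 were downregulated (PLAU and PLAUR), 3 did not pass the test (MMP1, MMP14 and TIMP3) and SERPINB2 was too low to be tested. Among all tested genes, 30.0% were called higher and 31.4% lower, 61.4% together, so 5 of 8 called was close to the share in the whole transcriptome. The largest rises were those of MMP2 (1.89-fold) and TIMP2 (1.85-fold). None of the 8 reached a log2 fold change of 1 in either direction together with an adjusted p-value under 0.05, the study's threshold for a differentially expressed gene, which 7.81% of tested genes passed. Their log2 fold changes ranged from -0.51 to 0.92 with a median of 0.09, beside a median of 0.0026 over all tested genes. In 5 of the 8 genes the FPKM of both groups did not overlap, a state found in 68.4% of tested genes.

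**Figure D1:**
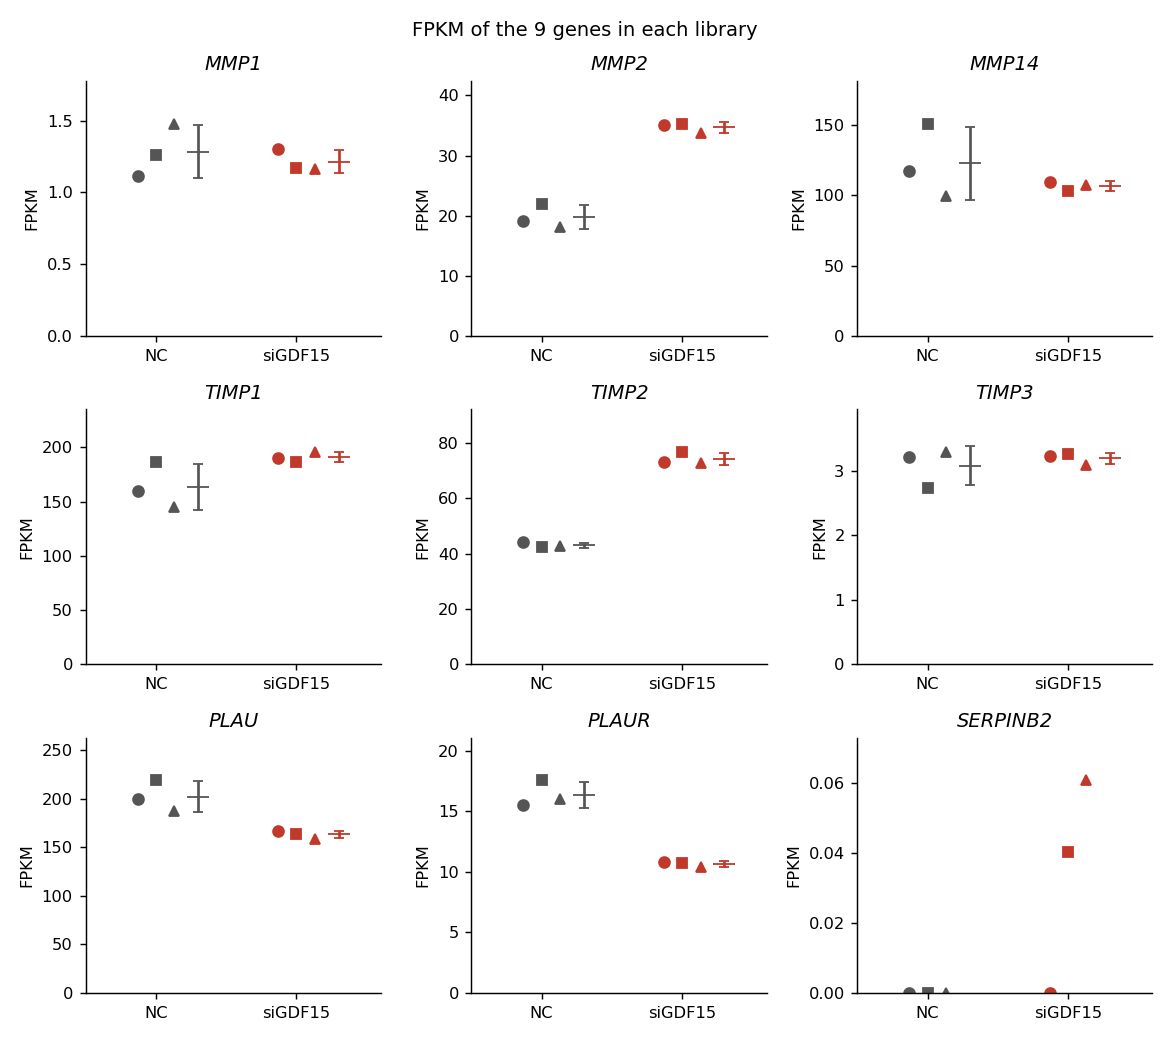
FPKM (vertical axes, linear, from 0) of each of the 9 genes in the 3 NC (grey) and 3 siGDF15 (red) libraries, with circles, squares and triangles for replicates 1, 2 and 3 and, except for SERPINB2, bars for the mean and SD to the right. MMP2 and TIMP2 lay higher and PLAU and PLAUR lower in all siGDF15 libraries, TIMP1 was higher by a narrow margin, and the groups overlapped for MMP1, MMP14, TIMP3 and SERPINB2.

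MMP2 (ENSG00000087245, chromosome 16 from 55389700 to 55506239 of GRCh38, plus strand) encodes gelatinase A, which cleaves basement membrane collagen and denatured collagen. It was at 19.2, 22.0 and 18.2 FPKM in NC replicates 1 to 3 and at 35.1, 35.3 and 33.7 FPKM in siGDF15 replicates 1 to 3. Every siGDF15 library lay well above the highest NC library. Mean FPKM (± SD, n = 3) went from 19.8 ± 1.97 to 34.7 ± 0.884. The log2 fold change was 0.92 (SE 0.069, 95% interval 0.76 to 1.07, adjusted p = 1.1e-05 from edgeR's quasi-likelihood test with Benjamini-Hochberg adjustment). Only 3.91% of tested genes had a higher log2 fold change.

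MMP14 (ENSG00000157227, chromosome 14 from 22836560 to 22849041, plus strand) encodes the membrane type enzyme that activates MMP2 on the cell surface. It was at 117, 151 and 99.7 FPKM in NC and at 110, 103 and 107 FPKM in siGDF15. The siGDF15 values all fell inside the NC range, and NC replicate 2 was 39.3% above the mean of the other NC libraries. The log2 fold change was -0.10 (SE 0.12, adjusted p = 0.53 from edgeR), with a 95% interval from -0.38 to 0.19. Without NC replicate 2 it was 0.08 (adjusted p = 0.34 from edgeR) and without NC replicate 3 it was -0.22 (adjusted p = 0.054 from edgeR).

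MMP1 (ENSG00000196611, chromosome 11 from 102789401 to 102798160, minus strand) encodes interstitial collagenase, which cuts fibrillar collagen and is a much used marker of the secretome. Its level was low in this line, at 1.11, 1.26 and 1.48 FPKM in NC and 1.31, 1.17 and 1.16 FPKM in siGDF15. These values rested on between 186 and 305 counts per library, where 1 read pair was taken as 4 counts. The groups overlapped, and the log2 fold change was 0.02 (SE 0.16, adjusted p = 0.91 from edgeR). Its 95% interval ran from -0.34 to 0.39, and its sign was negative in 7 of 15 alternative analyses, total count scaling among them (-0.08).

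TIMP2 (ENSG00000035862, chromosome 17 from 78852977 to 78922401, minus strand) encodes an inhibitor that also forms the bridge through which MMP14 holds the MMP2 precursor. It was at 44.0, 42.3 and 42.8 FPKM in NC and at 73.0, 76.6 and 72.7 FPKM in siGDF15. The libraries of each group lay close together and the groups were far apart. Mean FPKM (± SD, n = 3) went from 43.0 ± 0.899 to 74.1 ± 2.21, a log2 fold change of 0.89 (SE 0.047, 95% interval 0.78 to 1.00, adjusted p = 2.0e-06 from edgeR). This was the smallest adjusted p of the 8 tested genes. CEP295NL, a gene inside TIMP2 on the same strand, was at 0.0515, 0.0777 and 0.0140 FPKM in NC and at 0.316, 0.216 and 0.261 FPKM in siGDF15. It was higher in all siGDF15 libraries, as TIMP2 was, with a log2 fold change of 2.47 (adjusted p = 0.0045 from edgeR with a minimum of 0.1 FPKM), at levels far under those of TIMP2. Its part in the TIMP2 values was not tested.

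TIMP1 (ENSG00000102265, chromosome X from 47582408 to 47586789, plus strand) encodes a soluble inhibitor of most secreted metalloproteinases. It was at 160, 186 and 145 FPKM in NC and at 190, 187 and 196 FPKM in siGDF15. NC replicate 2 came within 1 FPKM of siGDF15 replicate 2, so the groups did not overlap by a narrow margin. The log2 fold change was 0.33 (SE 0.081, adjusted p = 0.0072 from edgeR), a 1.26-fold rise. The call held in all 15 alternatives, with log2 fold changes from 0.23 to 0.43 and adjusted p-values from 1.3e-04 to 0.048. The lowest log2 fold change came with total count scaling and the highest without NC replicate 2.

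TIMP3 (ENSG00000100234, chromosome 22 from 32801705 to 32863041, plus strand) encodes the inhibitor that stays bound to the matrix and also blocks ADAM proteases. It was at 3.20, 2.73 and 3.29 FPKM in NC and at 3.22, 3.26 and 3.09 FPKM in siGDF15. The groups overlapped and the log2 fold change was 0.16 (SE 0.093, 95% interval -0.06 to 0.37, adjusted p = 0.18 from edgeR). Under the 15 alternatives it lay between 0.04 and 0.21 and did not pass the threshold in any of them.

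PLAU (ENSG00000122861, chromosome 10 from 73909177 to 73917494, plus strand) encodes urokinase and was the most abundant of the 9 transcripts in NC. It was at 200, 219 and 187 FPKM in NC and at 167, 164 and 159 FPKM in siGDF15, with no siGDF15 value reaching the lowest NC value. The log2 fold change was -0.20 (SE 0.058, adjusted p = 0.016 from edgeR), a value 1.15-fold lower in siGDF15. Under median scaling the adjusted p from edgeR was 0.052, and without siGDF15 replicate 3 it was 0.069. C10orf55, on the opposite strand across PLAU, stood at a mean (± SD, n = 3) of 2.04 ± 0.360 in NC and 1.41 ± 0.129 in siGDF15, as FPKM. The libraries kept strand, but whether the counting used it was not found in the sources used here, so reads of both strands could be mixed.

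PLAUR (ENSG00000011422, chromosome 19 from 43646095 to 43670169, minus strand) encodes the urokinase receptor, a protein held on the membrane by a lipid anchor. It was at 15.5, 17.6 and 16.0 FPKM in NC and at 10.8, 10.7 and 10.4 FPKM in siGDF15. All siGDF15 libraries lay below all NC libraries with a wide gap. Mean FPKM (± SD, n = 3) went from 16.4 ± 1.06 to 10.7 ± 0.224. The log2 fold change was -0.51 (SE 0.058, 95% interval -0.65 to -0.38, adjusted p = 1.1e-04 from edgeR), a value 1.43-fold lower in siGDF15. It was the largest fall among the 9 genes, and 15.0% of tested genes had a lower log2 fold change.

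SERPINB2 (ENSG00000197632, chromosome 18 from 63871692 to 63903879, plus strand) encodes plasminogen activator inhibitor 2. It had 0 counts in each NC library and in siGDF15 replicate 1, 7 counts in siGDF15 replicate 2 and 13 counts in siGDF15 replicate 3. A count of 0 allows up to 3 read pairs, or 12 counts, which covers counting error only, and just 1 library passed that limit. No fold change is given. With no filter on low values its p was 0.030 and its adjusted p was 0.12 from edgeR.

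**Figure D2:**
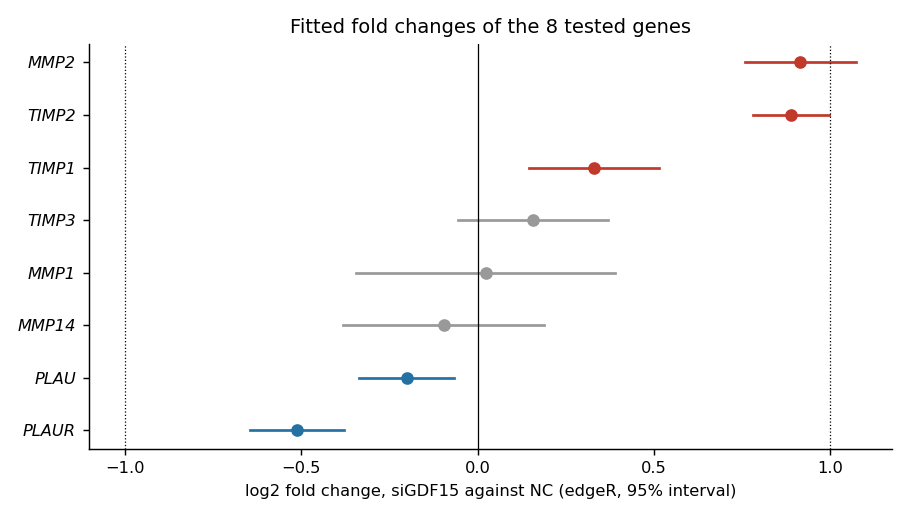
Fitted log2 fold changes (points) with 95% intervals (lines) from edgeR for the 8 tested genes, with dotted lines at -1 and 1. MMP2, TIMP2 and TIMP1 (red) were called higher and PLAU and PLAUR (blue) lower, while the intervals of TIMP3, MMP1 and MMP14 (grey) crossed 0.

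For each of the 5 called genes, an exact permutation test over the 6 libraries on log2(FPKM + 1) gave a two-sided p of 0.1, the smallest that 3 libraries against 3 allow. The coefficient of variation of FPKM was between 2.09% and 21.3% in NC and between 2.10% and 6.63% in siGDF15. It was larger in NC for 7 of the 8 tested genes, and for 62.5% of all tested genes. NC replicate 2 had the highest NC value in 5 of the 8 genes (MMP2, MMP14, TIMP1, PLAU and PLAUR), beside 43.9% of all tested genes.

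Since FPKM is scaled by transcript length, levels can be set side by side between genes. In NC the order of mean FPKM was PLAU, TIMP1, MMP14, TIMP2, MMP2, PLAUR, TIMP3, MMP1 and SERPINB2. The ranges of neighbours in this order did not overlap, except those of TIMP1 and MMP14, whose NC ranges of 145 to 186 and 99.7 to 151 FPKM overlapped. In siGDF15 TIMP1 (191 FPKM) moved above PLAU (163 FPKM), the rest of the order was the same, and no neighbours overlapped.

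Ratios of FPKM within a library show how an enzyme stood to a partner, and they do not depend on the scaling of libraries. They are given as a description with no test. The ratio of MMP14 to TIMP2 was 2.66, 3.57 and 2.33 in the NC libraries and 1.50, 1.34 and 1.47 in the siGDF15 libraries. The groups did not overlap, and the mean ratio was 1.98-fold lower in siGDF15. The ratio of MMP2 to TIMP2, a pair chosen after its values were seen, was 0.436, 0.520 and 0.425 in the NC libraries and 0.480, 0.461 and 0.463 in the siGDF15 libraries. Both genes rose by a similar factor and the siGDF15 ratios fell inside the NC range. The ratio of PLAU to PLAUR was 12.9, 12.5 and 11.7 in NC and 15.4, 15.3 and 15.3 in siGDF15, 1.24-fold higher in the mean with no overlap. MMP1 to TIMP1 was at most 0.0102 in every library, and the groups overlapped.

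**Figure D3:**
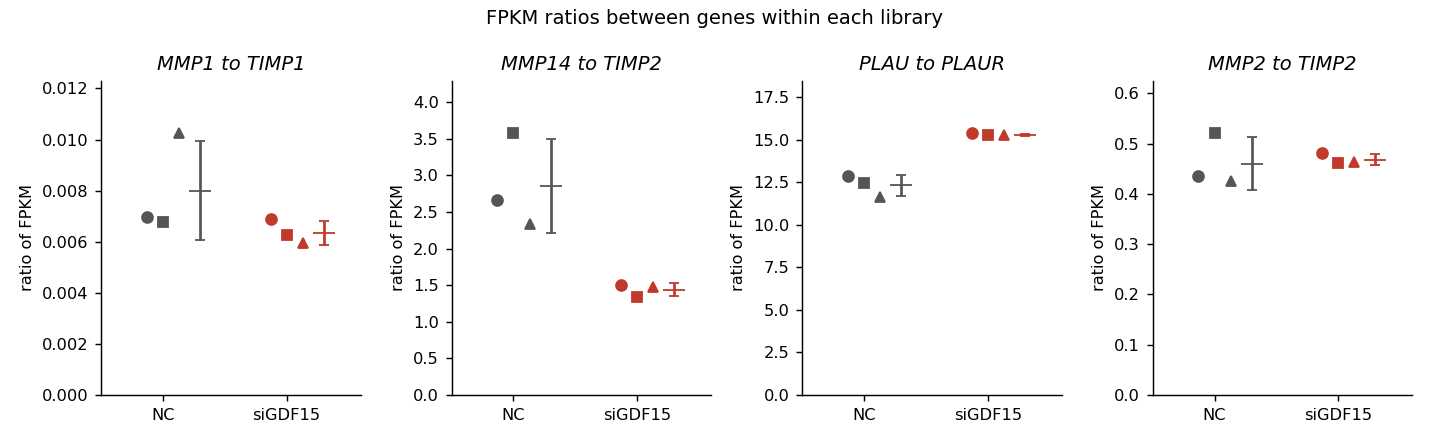
Ratios of FPKM between genes within each library (vertical axes from 0), with NC in grey, siGDF15 in red, symbols for replicates 1 to 3 and bars for the mean and SD (n = 3). MMP14 to TIMP2 was 2.86 ± 0.645 in NC and 1.44 ± 0.0848 in siGDF15, PLAU to PLAUR was 12.3 ± 0.619 and 15.3 ± 0.0628, and the other ratios overlapped between the groups.

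The promoter windows of 3 urokinase system genes are printed because PLAU and PLAUR fell together while SERPINB2 was near 0. They are the 250 bases before the annotated transcription start (RefSeq, GRCh38.p14), 5′ to 3′ on the gene's strand. PLAU has a pair of windows in that table, and the one that lies downstream is shown. The windows shown for PLAU and SERPINB2 lie inside the gene spans given above, which begin at 73909177 and 63871692. Capitals mark matches to an AP-1 site (TGANTCA, its own reverse complement), a GC box (GGGCGG or CCGCCC) or a TATA box (TATAAA or TTTATA), searched on both strands, and no match overlaps another.
PLAU promoter, chr10:73910882-73911131, plus strand: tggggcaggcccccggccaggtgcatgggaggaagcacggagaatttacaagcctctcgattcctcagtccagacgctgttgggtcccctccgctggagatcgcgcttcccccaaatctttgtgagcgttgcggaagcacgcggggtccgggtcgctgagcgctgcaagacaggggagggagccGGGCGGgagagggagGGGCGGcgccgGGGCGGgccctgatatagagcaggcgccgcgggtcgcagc
PLAUR promoter, chr19:43670170-43670419, minus strand: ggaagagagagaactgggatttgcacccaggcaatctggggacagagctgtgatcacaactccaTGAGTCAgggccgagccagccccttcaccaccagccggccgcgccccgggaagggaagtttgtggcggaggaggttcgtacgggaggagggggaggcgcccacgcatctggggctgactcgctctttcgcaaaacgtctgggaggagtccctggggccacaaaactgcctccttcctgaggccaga
SERPINB2 promoter, chr18:63887455-63887704, plus strand: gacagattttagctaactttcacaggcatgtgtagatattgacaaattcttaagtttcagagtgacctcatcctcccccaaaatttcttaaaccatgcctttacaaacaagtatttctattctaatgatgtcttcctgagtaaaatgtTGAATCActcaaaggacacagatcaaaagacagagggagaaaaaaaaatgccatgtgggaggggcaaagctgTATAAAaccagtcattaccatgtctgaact

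The PLAUR window held 1 AP-1 match, TGAGTCA, from 186 to 180 bases before the start. The SERPINB2 window held 1 AP-1 match, TGAATCA, from 102 to 96 bases before the start, and 1 TATA box match 30 bases before it. The PLAU window held 3 GC boxes, and the other PLAU window held no match to any of these motifs. Entries were found for 6 of the 9 genes, in 7 windows. MMP1, MMP2 and TIMP2 had no entry. Of 35116 windows of this length in the table, 6.57% held an AP-1 match, 42.6% a GC box and 10.7% a TATA box. GC boxes also stood in the windows of MMP14 (1 match), TIMP1 (2 matches) and TIMP3 (5 matches). These matches describe the letters of the windows only.

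The other genes of the same protease systems were taken from 7 lists with 113 genes, of which 58 were tested, 24 rose and 14 fell. The shares over all tested genes were 30.0% higher and 31.4% lower, 61.4% together, and they stand beside the counts of each list as well. Of 20 other matrix metalloproteinases, 5 were tested, none rose by edgeR, DESeq2 or limma (0 with an unadjusted p under 0.05 in each) and 2 fell. MMP16, a membrane type enzyme, had a log2 fold change of -0.28 (SE 0.079, adjusted p = 0.014 from edgeR). MMP15, another membrane type enzyme, had -0.20 (SE 0.068, adjusted p = 0.032 from edgeR), and this call was lost without any 1 of the 6 libraries, with adjusted p-values from 0.052 to 0.097. The median over the 5 was -0.13. With a minimum mean of 0.1 FPKM, 13 were tested, 4 rose and 3 fell. In that fit 3885 of all tested genes were called higher and 4284 lower. The shares of 30.0% and 31.4% belong to the fit with a minimum of 1 FPKM, and shares for the lower minimum are not given here. The 4 that rose were MMP24 (log2 fold change 1.76, adjusted p = 1.3e-04 from edgeR), MMP19 (1.25), MMP23B (0.97) and MMP28 (0.86), all with a mean under 1 FPKM over the 6 libraries. MMP24, a membrane type enzyme, was at 0.421 ± 0.0980 FPKM (mean ± SD, n = 3 each) in NC and at 1.36 ± 0.0132 in siGDF15, with no overlap. Among the 3 that fell was MMP9, or gelatinase B. These 5 genes were named after their values were seen. MMP9 was at 1.29, 0.951 and 1.09 FPKM in NC and at 0.238, 0.380 and 0.495 FPKM in siGDF15, with all siGDF15 libraries below all NC libraries. Its log2 fold change in that fit was -1.49 (SE 0.29, adjusted p = 0.0030 from edgeR), so the 2 gelatinase genes stood on opposite sides of 0.

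Of 11 other regulators of metalloproteinases, 6 were tested, 2 rose and 2 fell, with a median log2 fold change of 0.13. BSG, or EMMPRIN, a surface glycoprotein known to induce metalloproteinases, rose from 123 ± 2.97 to 142 ± 3.65 FPKM (mean ± SD, n = 3 each), or 0.31 on the log2 scale of the fit. CLDN1, a tight junction protein, had 0.31. FURIN, the convertase that removes the propeptide of MMP14, went from 23.9 ± 2.58 to 18.7 ± 0.233 FPKM (mean ± SD, n = 3 each), or -0.25 on the log2 scale of the fit and an adjusted p of 0.017 from edgeR, which was 0.058 without siGDF15 replicate 3 and 0.050 without siGDF15 replicate 1, both above the threshold of 0.05. SPOCK1, a testican proteoglycan, had -0.33.

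Of 21 other genes of the plasminogen system, 11 were tested, 4 rose and 3 fell, with a median of 0.24. LRP1, an endocytic receptor that clears urokinase bound to its inhibitors, rose from 14.2 ± 2.10 to 24.5 ± 0.279 FPKM (mean ± SD, n = 3 each), or 0.89 on the log2 scale of the fit (SE 0.090, adjusted p = 5.8e-05 from edgeR). ENO1, a glycolytic enzyme that also binds plasminogen at the cell surface, had 0.26. SERPINE2, or protease nexin 1, an inhibitor of thrombin and urokinase, fell from 6.28 ± 0.176 to 3.46 ± 0.146 FPKM (mean ± SD, n = 3 each), or -0.76 on the log2 scale of the fit (SE 0.055, adjusted p = 9.9e-06 from edgeR). VLDLR, a receptor related to LRP1, had -0.31. PLG, the plasminogen gene, was at most 0.0044 FPKM in any library.

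Of 12 other clade B serpins, 3 were tested and SERPINB1 rose, with a log2 fold change of 0.53 (SE 0.053, adjusted p = 5.2e-05 from edgeR). SERPINB1 encodes an inhibitor of neutrophil serine proteases. Of 28 ADAM and ADAMTS proteases, which shed membrane proteins or cut proteoglycans, 14 were tested, 10 rose and 1 fell, with a median of 0.41. Over all tested genes, 30.0% were called higher and 31.4% lower. ADAMTS12 rose from 3.86 ± 0.583 to 6.68 ± 0.103 FPKM (mean ± SD, n = 3 each), or 0.89 on the log2 scale of the fit, and ADAMTS15 had 0.98. The gene that fell was ADAM19, with -0.59. Among the 8 integrin genes whose products work with the urokinase receptor, 6 were tested, 3 rose and 2 fell. ITGB5 rose from 46.7 ± 5.72 to 74.0 ± 2.21 FPKM (mean ± SD, n = 3 each), or 0.77 on the log2 scale of the fit, and ITGA3 had 0.54. ITGB3, a subunit of the vitronectin receptor, fell from 65.2 ± 15.1 to 34.5 ± 3.21 FPKM (mean ± SD, n = 3 each), or -0.81 on the log2 scale of the fit, and ITGA5 had -0.34.

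The 13 AP-1 and ETS factors, which are known to act on promoters of metalloproteinase and urokinase system genes, were all tested, 4 rose and 4 fell, with a median of -0.04. FOSL1, an AP-1 subunit, fell from 189 ± 7.85 to 98.1 ± 6.52 FPKM (mean ± SD, n = 3 each), or -0.84 on the log2 scale of the fit (SE 0.063, adjusted p = 1.1e-05 from edgeR). JUND, another AP-1 subunit, rose from 24.7 ± 3.05 to 45.3 ± 2.46 FPKM (mean ± SD, n = 3 each). Its log2 fold change was 0.98 (adjusted p = 3.5e-05 from edgeR). FOSL2 had 0.33 (adjusted p = 8.2e-04 from edgeR), while FOS, FOSB, JUN and JUNB were not called. ETV5, an ETS factor of the PEA3 group, had -0.69. ETS2 rose from 9.16 ± 0.240 to 13.8 ± 0.181 FPKM (mean ± SD, n = 3 each), or 0.70 on the log2 scale of the fit. ELF3, an epithelial ETS factor, was the only one of the 58 tested genes of the 7 lists past the study's threshold. With a minimum mean of 0.1 FPKM, MMP9, MMP19, MMP24, ADAMTS14, VTN and SERPINI1, tested only there, passed it as well. ELF3 rose from 1.23 ± 0.282 to 7.07 ± 1.02 FPKM (mean ± SD, n = 3 each), or 2.62 on the log2 scale of the fit (SE 0.18, adjusted p = 6.6e-06 from edgeR). The part of any of these factors in the values of the 9 genes was not tested.

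**Figure D4:**
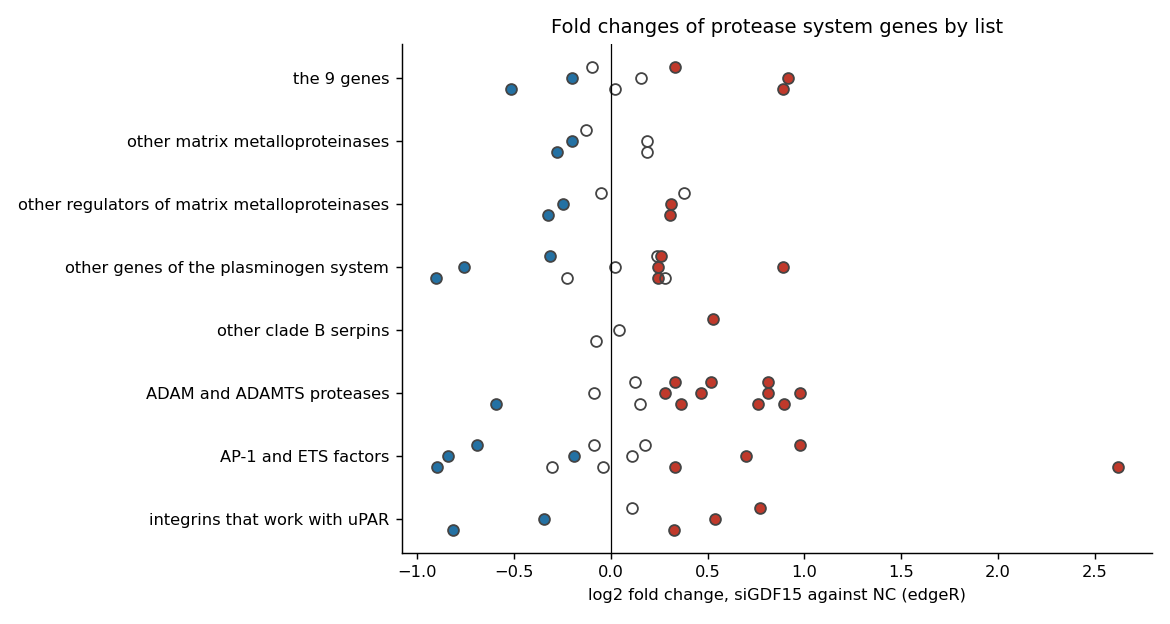
Log2 fold changes from edgeR (horizontal axis) of the tested genes in the 9 gene set and in each of the 7 lists, 1 circle per gene, spread vertically for legibility only. Filled circles had an adjusted p under 0.05 (red higher, blue lower in siGDF15) and open circles did not. The ADAM and ADAMTS list had 10 red and 1 blue circle, beside 30.0% higher and 31.4% lower over all tested genes. ELF3 at 2.62 lay farthest from 0.

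MMP2, the TIMP genes and PLAU are also known as genes of fibroblasts and leukocytes, so marker genes of other cell types were read beside them. The summed FPKM of 5 fibroblast markers (COL1A1, COL1A2, DCN, LUM and PDGFRA) was 16.4 to 22.6 in NC and 17.2 to 20.6 in siGDF15, and none of the 4 tested passed by edgeR (0 with an unadjusted p under 0.05). The 4 endothelial markers summed to at most 0.198 FPKM. Of the leukocyte markers, PTPRC was at most 0.0068 FPKM. CD14 went from 0.199 ± 0.0797 to 0.671 ± 0.0742 FPKM (mean ± SD, n = 3 each) without overlap (log2 fold change 1.81, adjusted p = 0.0026 from edgeR with a minimum of 0.1 FPKM). ITGAX was at 0.0905 ± 0.0349 in NC and 0.0287 ± 0.00451 in siGDF15 without overlap. CD68, which other cells also express, made up nearly all of a sum of 17.9 to 19.8 in NC and 16.6 to 18.6 in siGDF15. Epithelial markers summed to 108 to 160 in NC and 136 to 147 in siGDF15, with 1 of 6 called, higher. The called gene was CDH1, at 0.897 ± 0.294 FPKM in NC and 1.28 ± 0.145 in siGDF15 (mean ± SD, n = 3 each). Its groups overlapped, and its adjusted p of 0.049 from edgeR was just under the threshold. Mesenchymal markers summed to 756 to 817 and 824 to 867, with 1 of 4 called, higher, and a median log2 fold change of -0.09. The called gene was FN1, at 367 ± 43.1 FPKM in NC and 474 ± 26.7 in siGDF15 (mean ± SD, n = 3 each). The other mesenchymal markers did not pass the test and leaned lower. VIM went from 400 ± 21.8 to 355 ± 6.57 FPKM and CDH2 from 4.19 ± 0.141 to 3.61 ± 0.289, both without overlap. ZEB1 had a log2 fold change of -0.14. Mitochondrially encoded genes held 6.39 to 6.78% of counts in NC and 8.53 to 9.17% in siGDF15, and their part in the results above was not tested.

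**Figure D5:**
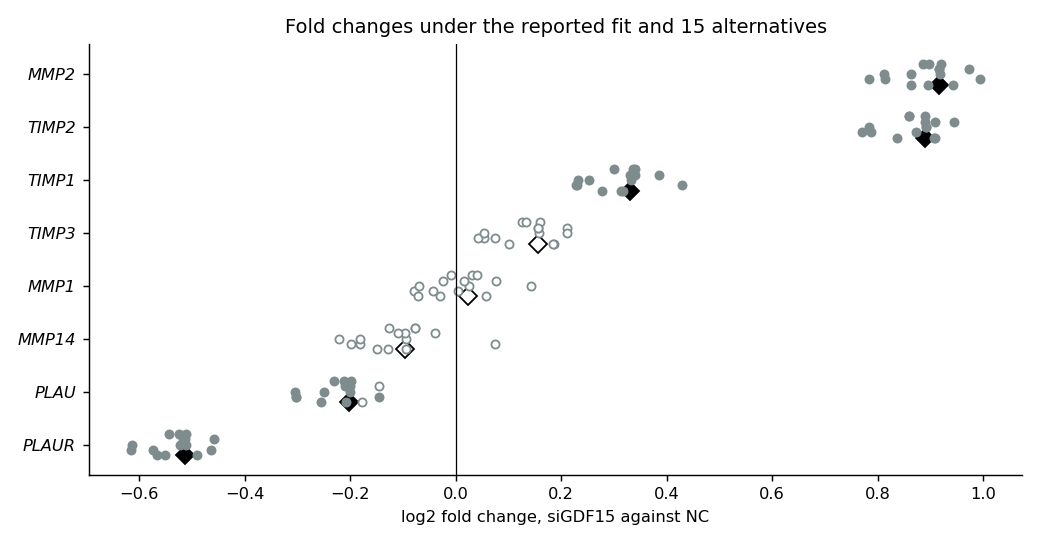
Log2 fold changes (horizontal axis) of the 8 tested genes in the reported fit (diamonds) and under 15 alternative analyses (circles), filled where the adjusted p was under 0.05 and open where it was not. MMP2, TIMP2, TIMP1 and PLAUR stayed filled on 1 side of 0 throughout, PLAU stayed below 0 with 2 open circles, and MMP1 and MMP14 lay on both sides of 0.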

How the data were processed

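Poly(A) RNA of 6 KHM-5M samples was sequenced, with 3 libraries in the NC group and 3 in the siGDF15 group, which the study calls biological replicates. The submitters' processing notes name fastp, HISAT2, StringTie, edgeR and GRCh38, and versions and annotation release were not found in the sources used here. The deposited table holds FPKM per gene, which corrects for transcript length and depth, and the authors' expected counts, whole numbers that are not normalized. The value 4 made up 15.6% of the counts between 1 and 20, more than any other, so 1 read pair was taken as 4 counts.

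Genes with a mean of at least 1 FPKM over the 6 libraries were tested on the expected counts with edgeR 4.0.16 (TMM, quasi-likelihood test, two-sided, no covariate) in R 4.3.3, with Benjamini-Hochberg adjustment over 11867 genes and a threshold of 0.05. Standard errors came from the F statistic of each fold change. Alternatives of scaling and filter were total count and median scaling, a minimum of 0.1 FPKM and no filter. Further ones were DESeq2 1.42.0, limma 3.58.1 on log2(FPKM + 1) and log2(FPKM + 0.1), counts per read pair, a replicate block, and each library left out in turn. These made up the 15 alternatives. The study's fold threshold was applied separately to the reported fit and is not among them. Tables and figures were made in Python 3.11.15 with scipy 1.17.1 and matplotlib 3.10.9.

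The members and lists were chosen with earlier results of these data known. Named genes were the members, GDF15, the genes past both thresholds in each list and its 2 genes with the smallest adjusted p in each direction, and C10orf55 and CEP295NL among genes that overlap a member. Outside this rule are genes tested only with a minimum of 0.1 FPKM, PLG, AP-1 subunits other than FOSL1 and marker genes named with values. These were chosen after their values were seen. SYN1 and SYN3, which also overlap, were at most 0.0572 and 0.0183 FPKM. RN7SL368P, which overlaps PLAUR on the same strand, had a mean of 0.262 FPKM over the 6 libraries and was at most 0.423 FPKM. It was named after its values were seen, and its part in the PLAUR values was not tested. Further genes that overlap a member are not reported by name here. Genes with a pattern like that of a member were to be named only for members past both thresholds, and there were 0. Some genes of the lists are counted but not reported by name here.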

Additional observations from a re-analysis of the deposited data

How the results depend on the processing

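Under 15 alternative analyses MMP2, TIMP1, TIMP2, PLAUR and GDF15 kept their direction and their call, with log2 fold changes of 0.78 to 0.99, 0.23 to 0.43, 0.77 to 0.95, -0.61 to -0.46 and -1.02 to -0.86. The number of the 9 genes called lower was 1 under median scaling and 1 to 2 over the fits that left out 1 library, since PLAU lost its call in both cases (adjusted p = 0.052 and 0.069 from edgeR). The cause was not tested. With a log2 fold change of at least 1 also required, 0 of the 9 genes were called higher and 0 lower, 1 gene of the 7 lists was higher and 0 lower, and 360 and 567 of all tested genes were higher and lower. The log2 fold change of MMP1, 0.02 as reported, was -0.078 with total count scaling, -0.0079 with a minimum of 0.1 FPKM, -0.030 with no filter, -0.044 with limma on log2(FPKM + 1) and -0.070 with limma on log2(FPKM + 0.1). With 1 library left out it was -0.071 to 0.14, and that of MMP14 was -0.22 to 0.075, the highest without NC replicate 2. The cause was not tested. Of 23 other genes named by the rule above and tested at 1 FPKM, 20 kept direction and call in all 15 alternatives. MMP15, FURIN and C10orf55 did not.

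Replicate numbers are shared by the titles of both groups. Deviations from the group means correlated at 0.028, -0.075 and 0.046 for replicates 1, 2 and 3, and not every library correlated best with its own number, so the numbers were not taken to pair the libraries. With the replicate block 3 of the 9 genes were called higher and 2 lower, as reported, and MMP15 lost its call (adjusted p = 0.064 from edgeR). SERPINB2 had 0 to 13 counts per library, beside the 12 counts that a count of 0 allows.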
